A study of Homo sapiens
Mus musculus with 8 samples.

Results

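The mouse T lymphoma line EL4 and the human T leukaemia line Jurkat were compared gene by gene in cells that had been captured, lysed and sequenced together. Each library held 4 lymphocyte lines mixed in the same amounts: EL4, Jurkat, the mouse B cell line IVA12 and the human CD8+ T cell line TALL-104. Of the 7 Chromium libraries read here, the comparison used the 4 made with the 3′ v3 kit, which counts unique molecular identifiers (UMIs) near the 3′ end of messenger RNA. A barcode was taken as EL4-like when it had at least 5000 UMIs, over 80% of them from mouse genes, under 10% of them mitochondrial, and when Lgals1, S100a6 and Perp together held at least 0.05% of its mouse UMIs and at least 5 times as many as Epcam, Cd24a, Ctss and Ckap4. A barcode was taken as Jurkat-like when it had at least 3000 UMIs, over 80% of them human, under 10% mitochondrial, and when NKG7, CST7 and CD8A held under 0.02%. Replicates 1 to 4 gave 1445, 550, 2678 and 1231 EL4-like cells (5904 in all) and 1386, 118, 2976 and 319 Jurkat-like cells (4799 in all). Together these were 10703 of the 31786 barcodes with at least 500 UMIs in the 3′ v3 libraries, and of the 38982 such barcodes in all 7 libraries read here.

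Both lines are untreated, transformed lines from a cell bank, grown in separate cultures and in media that were alike but not the same. EL4 medium held 2-mercaptoethanol and added L-glutamine, and Jurkat medium held penicillin and streptomycin instead. IVA12 and TALL-104 were grown in other base media, and TALL-104 medium held interleukin-2 and more serum. Replicates 1 and 3 came from one cell mixture and replicates 2 and 4 from another, so the 4 libraries are not 4 independent cultures, and p-values measure only the spread between these libraries, which may be technical. The comparison is between 1 mouse line and 1 human line. Line, species, gene annotation, read mapping and the pairing of symbols change together in it and cannot be told apart. Genes were paired by symbol, where a mouse symbol written in capitals matched a human symbol and each occurred once in its species. This left 15552 pairs out of 32738 human and 27998 mouse genes, and the pairs held 92.7% to 93.6% of the cells' own UMIs. Levels are in CPM: the UMIs of a gene were summed over the cells of a line in a library and scaled to a total of 1000000 over paired genes. Genes are written with the human symbol.

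T lymphocytes recognise antigen through the T cell receptor, whose variable chains sit in a complex with the CD3 chains and signal through the kinases LCK and ZAP70. Immature T cells assemble the receptor genes with the RAG recombinase in the thymus, under the control of NOTCH1 and of transcription factors such as TCF7 and BCL11B. T cell leukaemias and lymphomas are arrested at stages of this path, often with an oncogenic transcription factor such as TAL1 switched on, with NOTCH1 activated, and with loss of the CDKN2A locus or raised signalling by phosphoinositide 3-kinase (PI3K). EL4 and Jurkat are standard models of T cell receptor signalling and interleukin-2 production.

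The T cell identity of the rule's cells was checked with markers that the rule did not use. For this check levels were scaled over all genes of the cell's species in place of the paired genes. The summed level of 10 T cell markers present in the reference (of 12 listed) was 2075 to 2538 CPM in EL4-like cells against 21.1 to 50.6 CPM in the IVA12-like cells of the same libraries, and none was at 0. In Jurkat-like cells the corresponding 10 markers (of 13 listed) summed to 2975 to 3663 CPM, and none was at 0. TALL-104-like cells, which are T cells too, had 2857 to 3724 CPM of the same list, so it does not separate the human lines. Markers of the other line of each species were low in sum, although some members went the other way in every library. Cd22 and Pax5 were at 1.01 to 2.06 and 0.352 to 1.45 CPM in EL4-like cells, above the 0 to 0.459 and 0.278 to 0.560 CPM of IVA12-like cells. CD8B was at 4.27 to 10.4 CPM in Jurkat-like cells and 0 to 2.03 CPM in TALL-104-like cells. The B cell list summed to 8.37 to 17.4 CPM in EL4-like cells, with 2 to 4 of its 11 genes at 0, and to 455 to 680 CPM in IVA12-like cells. The cytotoxic list summed to 82 to 126 CPM in Jurkat-like cells, with up to 3 of its 10 genes at 0, and to 6265 to 7738 CPM in TALL-104-like cells. Of the B cell list, Cd74, Cd79b, Ebf1 and Ms4a1 had at least 10 CPM in the IVA12-like cells of every library, and in EL4-like cells they stood at 0.776% to 3.42% of that level. Of the cytotoxic list, 7 genes outside the rule had at least 10 CPM in every TALL-104 library. The 4 shares of the B cell markers differed by less than 2-fold within each library. A gene of EL4-like cells at or below the highest of them in its library is said below to lie within the marker share. The part of free RNA in such a level was not tested. In Jurkat-like cells the shares of the cytotoxic genes were unlike, from 0.0462% to 0.279% for CCL5 and 5.00% to 14.6% for CTSW, with 0% to 4.05% for the other 5 genes. No marker share is therefore set for Jurkat-like cells. Shares are given as values for only some of the genes that were far higher in TALL-104-like cells. Over paired genes, CD4, the coreceptor named in the study's description of both lines as CD4+ T cells, was close to 0 as RNA in EL4-like cells (0.101, 0.0672, 0.0276 and 0.0586 CPM) and low in Jurkat-like cells (0.743, 4.01, 1.07 and 3.99 CPM).

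The cells were chosen by their UMI totals, their species and mitochondrial shares and the levels of 10 marker genes, so these values are given as a description only. LGALS1, S100A6 and PERP had 1028 to 1773, 229 to 533 and 149 to 266 CPM in EL4-like cells and 9.63 to 21.4, 0 to 0.307 and 0 to 0.307 CPM in Jurkat-like cells, where no limit had been set on them. NKG7 was limited in Jurkat-like cells (14.7 to 24.6 CPM) and not in EL4-like cells (0 to 0.327 CPM). At the edges of the rule, the nearest barcodes to the EL4 minimum of 5000 UMIs in replicate 1 had 4938 UMIs (left out) and 5021 UMIs (kept), and the nearest to the Jurkat minimum of 3000 had 2992 and 3114 UMIs. The nearest ratios of the mouse marker sums in replicate 3 were 4.71 and 5.19. The mitochondrial limit mattered most in 1 preparation: it kept 96.8% and 99.6% of the Jurkat candidates in replicates 1 and 3 but 52.2% and 44.5% in replicates 2 and 4, whereas 87.8% to 97.8% of mouse candidates passed. Median UMIs per Jurkat-like cell were 18302, 11158, 18036 and 10255 in replicates 1 to 4, and lower where the limit had removed more. EL4-like cells had medians of 27455 to 29430. UMIs of the other species made up 0.416% to 2.39% of EL4-like and 1.21% to 3.70% of Jurkat-like totals, and 6 EL4-like barcodes in replicate 4 with at least 472393 UMIs each held 9.04% of that line's UMIs there. Of all barcodes, 1 was shared between EL4-like cells of replicates 1 and 2 and 1 between Jurkat-like cells of replicates 1 and 3.

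Most genes differed between the lines. Each line's summed counts were fitted with edgeR's quasi-likelihood test, with the library as a block and p-values adjusted by the Benjamini-Hochberg method over the 10913 genes that passed the filter on low counts. At an adjusted p under 0.05, 8492 genes (77.8%) differed, 3158 of them higher and 5334 lower in EL4-like cells. With a difference of at least 2-fold as well, 2044 genes (18.7%) were higher in EL4-like cells and 3924 (36.0%) were lower. In 7027 genes (64.4%) the 4 EL4 values did not overlap the 4 Jurkat values. The median absolute log2 fold change was 1.16 and the median standard error was 0.19. The 18.7% and 36.0% are the background against which the counts of each gene list below stand. The 64.4% is that for genes said below not to overlap between the lines. Many of those were named for a large difference, so their separation is given as a description.

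The direction of the split depended on the scaling. With totals over paired genes the median log2 fold change (EL4 over Jurkat) was -0.39, and 37.2% of the calls were higher and 62.8% lower in EL4-like cells. With trimmed-mean (TMM) factors the median was 0.02, with a median shift of 0.41 over the genes, and the split was 50.3% against 49.7%. TMM called 8545 genes (78.3%), of which 2817 (25.8%) were at least 2-fold higher and 3164 (29.0%) at least 2-fold lower. Of the 5968 genes called at 2-fold or more, 5208 were so with both scalings. Fold changes below use paired totals, and both medians are given for each list so that it can be read against the -0.39 and 0.02 of all genes tested.

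The 2 preparations were also fitted apart. The 2-fold calls came from all 4 libraries, so their sign within a preparation is largely set by that choice and is no independent check. Over all 10302 genes tested in both, 2185 had line differences that were at least 2-fold apart between preparations. Over these genes the median log2 fold change was -0.44 in replicates 1 and 3 and -0.30 in replicates 2 and 4. Spearman correlations of levels over the genes were 0.97 to 1.00 between libraries for EL4-like cells, 0.94 to 1.00 for Jurkat-like cells and 0.67 to 0.71 between the lines within a library. They are given as a description, since genes are not independent replicates.

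The CD3 chains were expressed in both lines and were lower in EL4-like cells. CD3D, a signalling chain of the receptor complex, was at 739, 369, 785 and 374 CPM in EL4-like cells of replicates 1 to 4 and at 1380.5, 1007, 1464 and 987 CPM in Jurkat-like cells (log2 fold change -1.16 ± 0.14 SE, edgeR adjusted p = 1.28e-04). CD3E was at 200.3, 103, 173 and 93.1 against 562, 602, 489 and 514 CPM (log2 fold change -2.0 ± 0.22 SE, edgeR adjusted p = 8.22e-05). CD247, the zeta chain that carries most of the phosphorylation sites, was at 15.4, 20.3, 13.9 and 16.8 against 132, 100.3, 126 and 84.8 CPM (log2 fold change -2.75 ± 0.20 SE, edgeR adjusted p = 8.12e-06). The libraries of the lines did not overlap for any of these. CD3G differed by just under 2-fold (379, 168, 387 and 177 against 529.9, 441, 622 and 471 CPM, log2 fold change -0.99 ± 0.18 SE, edgeR adjusted p = 0.00152). In EL4-like cells the levels of all 3 CD3 genes were higher in replicates 1 and 3 than in replicates 2 and 4.

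The other T cell surface genes of the list went both ways. CD7, an early marker of human T cells and of T cell leukaemia, had 1 UMI in all EL4-like cells and 264, 160.4, 210.3 and 167 CPM in Jurkat-like cells (ratio 36251, exact 95% interval 6506 to 1431900 for counting error, edgeR adjusted p = 1.49e-07). The scavenger-receptor protein CD6 was at 0.503, 0.470, 0.772 and 0.908 against 15.3, 20.9, 17.8 and 25.5 CPM (log2 fold change -4.83 ± 0.22 SE, edgeR adjusted p = 9.09e-07). The adhesion receptor CD2 was at 28.9, 19.6, 29.95 and 16.99 against 156, 180.5, 175 and 206 CPM (log2 fold change -2.93 ± 0.22 SE, edgeR adjusted p = 1.02e-05). CD7, CD6 and CD2 were lower in all EL4 libraries. CD5, a negative regulator of receptor signalling related to CD6, went the other way and was at 62.7, 70.7, 62.5 and 67.9 against 22.7, 40.1, 22.2 and 39.3 CPM (log2 fold change 1.17 ± 0.17 SE, edgeR adjusted p = 3.76e-04). CD28, the main costimulatory receptor, was at 159, 121, 153 and 117 against 55.6, 97.9, 54.2 and 96.4 CPM (log2 fold change 0.93 ± 0.25 SE, edgeR adjusted p = 0.0102). Only CD5 and CD28 were higher in EL4-like cells among the 10 tested genes of the list, and neither they nor the lower genes overlapped between the lines. Of those 10 (16 listed, 11 paired), 1 was called at least 2-fold higher in EL4-like cells and 7 at least 2-fold lower (2 and 6 with TMM factors). Their median log2 fold change was -2.37 (-1.96 with TMM factors). CD8A had 0 UMIs in EL4-like cells and was limited by the rule in Jurkat-like cells, and the constant chains of the receptor could not be paired by symbol.

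**Figure D1:**
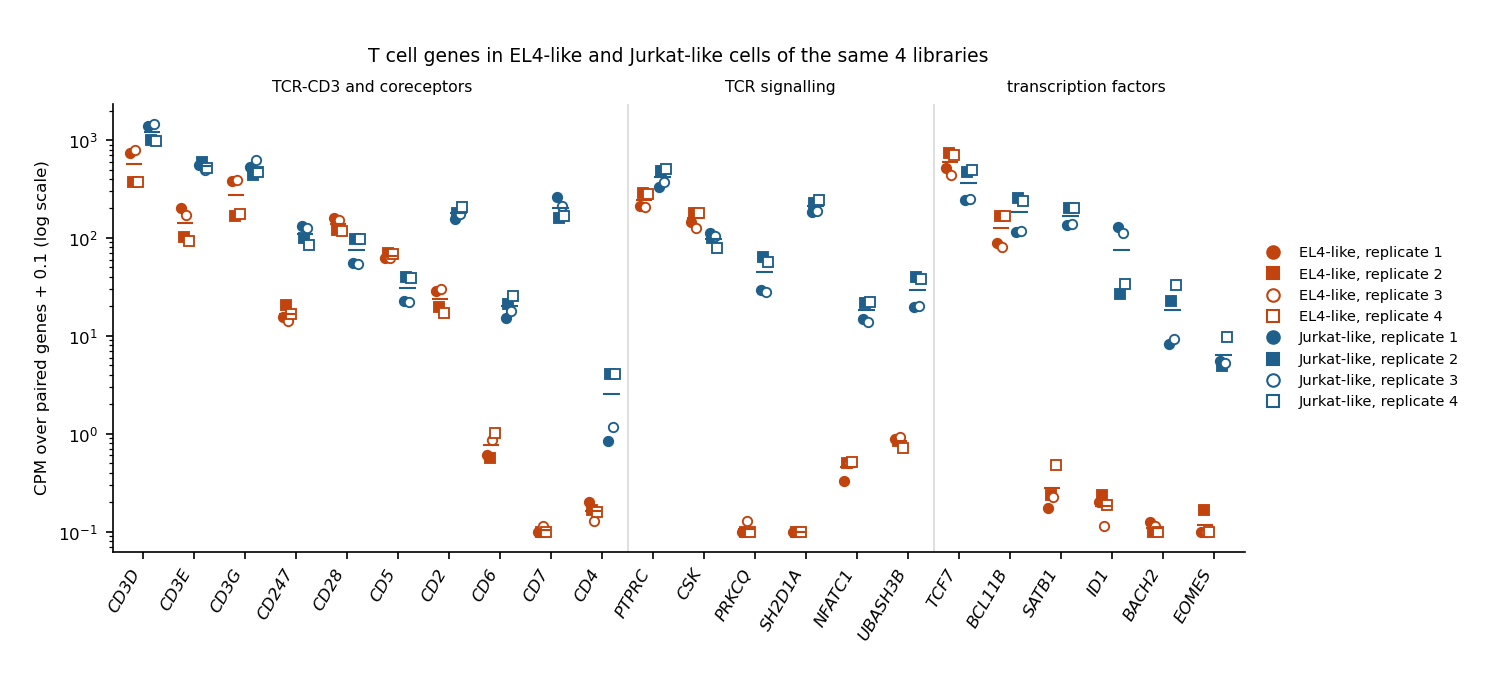
Levels of T cell genes in EL4-like (orange) and Jurkat-like (blue) cells, in CPM over paired genes plus 0.1 on a log axis, with 1 point per library (circles, replicates 1 and 3; squares, replicates 2 and 4; filled, replicates 1 and 2; open, replicates 3 and 4) and a bar at the mean. CD3D, CD3E, CD3G and TCF7 are high in both lines, whereas CD7, PRKCQ, SH2D1A, SATB1, BACH2 and EOMES lie at or near 0 in EL4-like cells.

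Below the receptor, kinases and adaptors were divided between the lines. Of the 37 genes of proximal signalling that were tested, 8 were called at least 2-fold higher in EL4-like cells and 14 at least 2-fold lower (9 and 10 with TMM factors). The list had a median log2 fold change of -0.49 (-0.07 with TMM factors), close to that of all genes. SH2D1A encodes SAP, the adaptor of the SLAM receptors, and had no UMI in EL4-like cells against 182, 228, 189 and 246 CPM in Jurkat-like cells. It was at least 10203-fold lower in EL4-like cells, taking 3 UMIs over the 4 libraries as the floor (edgeR adjusted p = 2.91e-06). PRKCQ, the kinase that links the receptor to NF-kappaB, had 2 UMIs in EL4-like cells and 29.1, 63.4, 27.8 and 57.1 CPM in Jurkat-like cells. The calcium-regulated factor NFATC1 was at 0.226, 0.403, 0.400 and 0.410 against 14.8, 21.7, 13.7 and 22.1 CPM (log2 fold change -5.57 ± 0.24 SE, edgeR adjusted p = 8.47e-07). The phosphatase UBASH3B was at 0.779, 0.739, 0.827 and 0.615 against 19.5, 40.1, 20.2 and 38.4 CPM (log2 fold change -5.13 ± 0.29 SE, edgeR adjusted p = 2.52e-06). PTPRC (CD45), which activates LCK, and CSK, which inhibits it, differed by under 2-fold in opposite directions: PTPRC had a log2 fold change -0.77 ± 0.11 SE, edgeR adjusted p = 2.62e-04, and CSK had a log2 fold change 0.67 ± 0.17 SE, edgeR adjusted p = 0.00765. None of these 6 genes overlapped between the lines, which also held for 27 of the 37 tested and for 64.4% of all genes. SH2D1A, PRKCQ, NFATC1 and UBASH3B were named for the size of their difference, so their separation is a description only.

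TCF7 and BCL11B, which define the T lineage, were expressed in both lines, and SATB1 and ID1 nearly in 1 line only. TCF7, needed for entry into the lineage, was at 516, 736, 439 and 698 CPM in EL4-like cells and 245, 476, 249 and 495 CPM in Jurkat-like cells, with overlapping libraries (log2 fold change 0.76 ± 0.13 SE, edgeR adjusted p = 8.88e-04). BCL11B, needed for commitment, overlapped too (88.3, 169, 80.5 and 166 against 116, 254, 118 and 241 CPM, log2 fold change -0.52 ± 0.11 SE, edgeR adjusted p = 0.00256), and its call was lost with TMM factors (log2 fold change -0.11). The chromatin organiser SATB1 stood apart, at 0.0754, 0.134, 0.124 and 0.381 CPM in EL4-like cells and 136, 201, 140.3 and 199.9 CPM in Jurkat-like cells (log2 fold change -9.87 ± 0.28 SE, edgeR adjusted p = 2.20e-07). ID1, an inhibitor of basic helix-loop-helix factors, was at 0.101, 0.134, 0.0138 and 0.0879 against 129, 26.5, 113 and 33.8 CPM (log2 fold change -10.30 ± 0.49 SE, edgeR adjusted p = 1.18e-06), and within Jurkat-like cells its level in replicates 1 and 3 was several times that in replicates 2 and 4. BACH2 and EOMES, known from naive and cytotoxic T cells, had 2 and 1 UMIs in EL4-like cells and 8.25 to 33.2 and 4.81 to 9.52 CPM in Jurkat-like cells. Of the 26 tested genes of the list, 8 were called at least 2-fold higher in EL4-like cells and 9 at least 2-fold lower (10 and 8 with TMM factors). The median log2 fold change of the list was -0.17 (0.25 with TMM factors).

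Genes around PI3K went both ways. INPP5D (SHIP1), the lipid phosphatase of blood cells, was at 21.7, 44.7, 20.4 and 39.6 against 5.91, 23.3, 7.12 and 18.4 CPM, higher in EL4-like cells by test although replicate 2 of Jurkat exceeded replicates 1 and 3 of EL4 (log2 fold change 1.41 ± 0.18 SE, edgeR adjusted p = 2.09e-04). FOXO1, the transcription factor that AKT keeps out of the nucleus, was at 17.2, 34.6, 15.5 and 34.7 against 1.04, 2.41, 1.23 and 2.76 CPM (log2 fold change 3.79 ± 0.18 SE, edgeR adjusted p = 1.13e-06). PIK3IP1, an inhibitor of PI3K, was at 15.2, 19.9, 14.8 and 18.1 against 0.817, 4.01, 0.725 and 4.30 CPM (log2 fold change 3.60 ± 0.42 SE, edgeR adjusted p = 1.18e-04). The leukocyte catalytic subunit PIK3CD was higher in EL4-like cells (20.1, 37.5, 16.9 and 33.5 against 4.87, 8.82, 4.84 and 13.8 CPM, log2 fold change 1.79 ± 0.18 SE, edgeR adjusted p = 4.55e-05), whereas PIK3CA (log2 fold change -0.86 ± 0.15 SE, edgeR adjusted p = 0.00113) and the regulatory subunit PIK3R1 (log2 fold change -1.26 ± 0.13 SE, edgeR adjusted p = 6.95e-05) were lower. FOXO1, PIK3IP1 and PIK3CD did not overlap between the lines.

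KLF2 and S1PR1, which FOXO1 is known to induce in T cells, were higher in Jurkat-like cells. KLF2 was at 2.94, 2.48, 2.18 and 3.19 CPM in EL4-like cells and 72.1, 69.8, 61.2 and 56.5 CPM in Jurkat-like cells (log2 fold change -4.59 ± 0.17 SE, edgeR adjusted p = 4.72e-07). S1PR1, the receptor for exit from lymphoid organs, was at 0.101, 0.0672, 0.152 and 0.0586 against 13.4, 39.3, 13.3 and 27.9 CPM (log2 fold change -7.39 ± 0.39 SE, edgeR adjusted p = 1.86e-06). The KLF2 difference was not seen with the 5′ kit, as given below. AKT1 was higher in EL4-like cells (log2 fold change 1.05 ± 0.12 SE, edgeR adjusted p = 9.93e-05) and AKT2 lower (log2 fold change -1.35 ± 0.12 SE, edgeR adjusted p = 2.15e-05). Of the adaptor subunits that define the mTOR complexes, RPTOR was higher (log2 fold change 1.22 ± 0.17 SE, edgeR adjusted p = 3.11e-04) and RICTOR lower (log2 fold change -1.01 ± 0.15 SE, edgeR adjusted p = 3.62e-04). FOXO3 differed by a log2 fold change of -0.52 that lost its call with TMM factors, and also without replicate 2 or without replicate 4 (edgeR adjusted p = 0.628, 0.0997 and 0.123). A further 7 tested members had log2 fold changes of -0.68 to 0.68, and 4 of them passed the test. In all, of 21 tested genes of the list, 7 were called at least 2-fold higher in EL4-like cells and 5 at least 2-fold lower (9 and 2 with TMM factors). As a list they had a median log2 fold change of -0.15 (0.26 with TMM factors).

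Several oncogenes of T cell leukaemia were read in 1 of the lines only. TAL1, which Jurkat expresses from an activated allele, had no UMI in EL4-like cells and 53.2, 95.5, 49.8 and 93.4 CPM in Jurkat-like cells, a difference of at least 2859.9-fold (edgeR adjusted p = 5.11e-06). Its partner LMO1 had 5.94, 10.4, 5.63 and 4.61 CPM and MYCN 8.54, 13.6, 8.10 and 7.37 CPM in Jurkat-like cells, again with no UMI in EL4-like cells (at least 309.8-fold and 446-fold). MYC was present in both, at 70.9, 75.2, 64.3 and 64.6 against 302, 116, 263 and 111 CPM, and the difference was larger in replicates 1 and 3 than in replicates 2 and 4 (log2 fold change -1.41 ± 0.28 SE, edgeR adjusted p = 0.00213). In the other direction, LYL1, a relative of TAL1, was at 5.65, 5.98, 6.23 and 7.70 against 1.75, 2.41, 1.81 and 2.46 CPM (log2 fold change 1.68 ± 0.21 SE, edgeR adjusted p = 1.62e-04), while HOXA9 had no UMI in Jurkat-like cells and 0.603 to 1.70 CPM in EL4-like cells. LYL1 was at 51.04 to 62.3 CPM in IVA12-like cells, and its EL4 levels were 9.08% to 15.1% of those. MEF2C had no UMI in Jurkat-like cells and 1.21 to 4.69 CPM in EL4-like cells, but 177 to 275 CPM in IVA12-like cells. Its EL4 level was 0.680% to 1.96% of the IVA12 level, within the marker share, and the part of free RNA in it was not tested. TLX1 and TLX3 had no UMI in either line and were not tested. LMO2 was low in both, at 0.470 to 0.578 and 0 to 0.921 CPM (edgeR adjusted p = 0.0738).

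NOTCH1, NOTCH3 and 3 genes that NOTCH signalling is known to induce were higher in Jurkat-like cells. NOTCH1 was at 0.578, 1.28, 1.53 and 2.17 CPM in EL4-like cells and 21.6, 51.3, 21.1 and 51.9 CPM in Jurkat-like cells (log2 fold change -4.61 ± 0.28 SE, edgeR adjusted p = 3.91e-06). NOTCH3 was at 0.0754, 0, 0.0551 and 0 against 7.17, 17.6, 6.87 and 17.8 CPM (log2 fold change -7.73 ± 0.55 SE, edgeR adjusted p = 8.08e-06). DTX1, HES1 and NRARP are target genes of these receptors and were lower in every EL4 library. DTX1 was at 0.0251, 0, 0.0414 and 0.0879 against 45.9, 47.3, 37.0 and 40.2 CPM (log2 fold change -9.76 ± 0.31 SE, edgeR adjusted p = 2.70e-07). HES1 was at 0.201, 0.470, 0.400 and 0.586 against 10.7, 3.21, 11.4 and 7.37 CPM (log2 fold change -4.50 ± 0.44 SE, edgeR adjusted p = 4.01e-05). NRARP was at 0.0503, 0, 0.0414 and 0.0879 against 0.446, 1.60, 0.652 and 1.84 CPM (log2 fold change -4.04 ± 0.59 SE, edgeR adjusted p = 3.84e-04). RBPJ, the DNA-binding partner of all NOTCH receptors, differed less (34.6, 54.1, 33.7 and 50.5 against 73.1, 136, 81.3 and 128 CPM, log2 fold change -1.25 ± 0.11 SE, edgeR adjusted p = 3.01e-05). These 6 genes were separate between the lines in all libraries. CDKN2A, CDKN2B and CDKN1B, also of this list, are given below. The 4 remaining members had log2 fold changes of -0.72 to 0.39, and 2 passed the test. Of the 21 tested genes of the leukaemia and NOTCH list, 5 were called at least 2-fold higher in EL4-like cells and 11 at least 2-fold lower (6 and 8 with TMM factors). Over these genes the median log2 fold change was -1.20 (-0.78 with TMM factors). MEF2C and CDKN2A, whose EL4 levels lay within the marker share, are among the 5 called higher.

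CDKN2B and MTAP, of the CDKN2A locus, were read in EL4-like cells and not in Jurkat-like cells. CDKN2B, an inhibitor of CDK4, was at 26.8, 19.4, 27.3 and 19.5 CPM in EL4-like cells, above the 5.91 to 10.1 CPM of IVA12-like cells. It had no UMI in Jurkat-like cells, which puts it at least 716-fold lower there (edgeR adjusted p = 2.14e-05). CDKN2A, which encodes inhibitors of CDK4 and of MDM2, had no UMI in Jurkat-like cells either. In EL4-like cells it was at 6.13, 4.03, 12.6 and 10.7 CPM, but in the IVA12-like cells of the same libraries at 350.2 to 575 CPM. The EL4 level was 1.04% to 3.05% of the IVA12 level, within the marker share, and the part of free RNA in it was not tested. MTAP, the adjacent gene in the human order, which salvages methionine from polyamine synthesis, was at 159, 158, 157 and 156 CPM in EL4-like cells, and had no UMI in Jurkat-like cells (at least 4538-fold). Looking outwards in the human gene order, a step chosen after these values were seen, KLHL9 had 4133 UMIs in EL4-like cells and 1 in Jurkat-like cells, and the paired interferon genes between them had 0 in both. On the other side of CDKN2B, DMRTA1, ELAVL2, IZUMO3 and TUSC1 had at most 8 UMIs in either line, while CAAP1 (2925 UMIs) and PLAA (3975 UMIs) were read in Jurkat-like cells. TALL-104-like cells also had 0 UMIs of MTAP, CDKN2A and CDKN2B, and had 37, 29 and 43 UMIs of KLHL9, CAAP1 and PLAA. The kinase inhibitor CDKN1B was lower in EL4-like cells (20.7, 23.9, 24.9 and 24.5 against 32.5, 80.2, 38.0 and 91.5 CPM, log2 fold change -1.20 ± 0.25 SE, edgeR adjusted p = 0.00289).

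**Figure D2:**
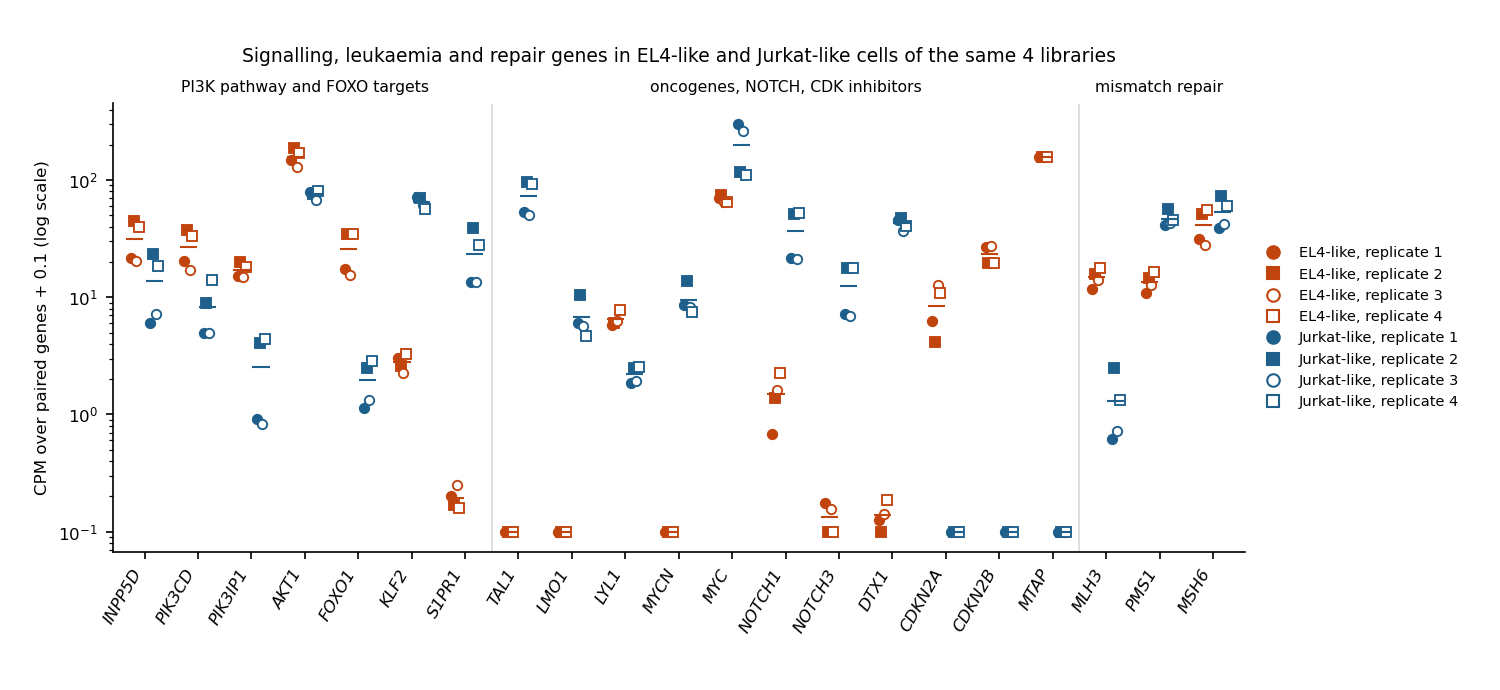
Levels of PI3K pathway, leukaemia and mismatch repair genes in EL4-like (orange) and Jurkat-like (blue) cells, in CPM over paired genes plus 0.1 on a log axis, with points and bars as in the plot of T cell genes. TAL1, LMO1 and MYCN lie on the floor in EL4-like cells and CDKN2A, CDKN2B and MTAP in Jurkat-like cells, FOXO1 is higher in all EL4 libraries, and the mismatch repair genes go both ways.

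The recombinase genes of thymocytes were detected in Jurkat-like cells alone. RAG1 and RAG2 had no UMI in EL4-like cells and 1.11, 1.60, 0.996 and 0.921 and 3.08, 3.21, 4.55 and 5.53 CPM in Jurkat-like cells (at least 55.9-fold and 221-fold lower in EL4, edgeR adjusted p = 8.24e-04 and 1.44e-04). ADA, the adenosine deaminase that protects thymocytes, was at 62.0, 76.6, 61.9 and 77.4 against 810.0, 669.9, 766 and 643 CPM (log2 fold change -3.38 ± 0.16 SE, edgeR adjusted p = 1.16e-06). DNTT, the polymerase that adds bases at receptor joints, was at 94.8, 113, 87.8 and 108 against 88.1, 138, 93.9 and 179.7 CPM, and its log2 fold change of -0.25 turned to 0.16 with TMM factors (edgeR adjusted p = 0.173 and 0.355). PTCRA, the surrogate chain of the immature receptor, was low in both (1.33, 3.76, 6.27 and 3.16 against 4.94, 4.81, 4.85 and 11.1 CPM, log2 fold change -0.93 ± 0.43 SE, edgeR adjusted p = 0.0826). DNTT and PTCRA libraries overlapped, whereas those of the other 3 genes did not. The 5′ v1 kit called all 5 genes at least 2-fold lower in EL4-like cells. There DNTT was at 55.0 and 38.6 against 105 and 105.9 CPM in replicates 1 and 2 (log2 fold change -1.19), and PTCRA was at 0 and 0.181 against 11.2 and 10.6 CPM.

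Mismatch repair genes moved both ways. MLH3 was at 11.8, 15.8, 14.0 and 17.8 CPM in EL4-like cells and 0.520, 2.41, 0.616 and 1.23 CPM in Jurkat-like cells (log2 fold change 4.26 ± 0.28 SE, edgeR adjusted p = 5.48e-06). PMS1 and PMS2 were lower in EL4-like cells, with log2 fold changes of -1.78 and -0.78 (edgeR adjusted p = 1.29e-05 and 0.00157). MSH6 had a log2 fold change of -0.39 that turned to 0.02 with TMM factors, and the exonuclease EXO1 one of 0.51. MLH3, PMS1 and PMS2 did not overlap between the lines, and MSH6 and EXO1 did. Of 8 genes tested, 2 were called at least 2-fold higher in EL4-like cells and 2 at least 2-fold lower (2 and 2 with TMM factors). Together they had a median log2 fold change of -0.35 (0.06 with TMM factors).

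Genes known to be induced by p53, the damage-responsive tumour suppressor, had a median above that of all genes. CDKN1A (p21), its classic cell cycle target, was at 29.8, 38.3, 34.0 and 31.7 CPM in EL4-like cells and 0.520, 0.802, 0.706 and 2.76 CPM in Jurkat-like cells (log2 fold change 5.29 ± 0.36 SE, edgeR adjusted p = 6.07e-06). MDM2, which degrades p53, had a log2 fold change 0.89 ± 0.16 SE, edgeR adjusted p = 0.00119, with EL4 levels from 64.3 to 164 CPM and Jurkat levels from 35.7 to 79.5 CPM. In IVA12-like cells MDM2 was at 2443 to 3043 CPM, and its EL4 levels were 2.63% to 5.39% of those, above the share of each of the 4 B cell markers in the same library. PMAIP1 (NOXA), a proapoptotic target, went the other way (0.452, 0.672, 1.05 and 1.82 against 57.1, 61.8, 58.5 and 70.3 CPM, log2 fold change -6.01 ± 0.29 SE, edgeR adjusted p = 1.31e-06), and PHLDA3 had no UMI in EL4-like cells against 5.62 to 9.03 CPM. Without the selection gene PERP, 20 targets were tested, of which 6 were called at least 2-fold higher in EL4-like cells and 5 at least 2-fold lower (8 and 5 with TMM factors). Their median log2 fold change was 0.33 (0.75 with TMM factors), beside -0.39 (0.024 with TMM factors) for all genes tested. In the BCL2 family of apoptosis regulators, 4 were called at least 2-fold higher in EL4-like cells and 5 at least 2-fold lower (5 and 5 with TMM factors) of 13 tested. The list had a median log2 fold change of -0.31 (0.10 with TMM factors). The survival gene BCL2L1 was at 3.64, 5.91, 3.42 and 6.03 against 32.4, 40.9, 27.1 and 46.4 CPM (log2 fold change -2.98 ± 0.14 SE, edgeR adjusted p = 1.17e-06). The killer gene BIK was at 0.201, 0.201, 0.331 and 0.439 against 34.2, 26.5, 32.3 and 18.7 CPM (log2 fold change -6.52 ± 0.32 SE, edgeR adjusted p = 1.37e-06), and HRK had no UMI in EL4-like cells against 0.520 to 3.07 CPM.

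Most of the tested costimulatory, checkpoint and other surface receptors differed by at least 2-fold, as many in one direction as in the other. PDCD1 (PD-1), the checkpoint receptor, was at 94.3, 39.4, 98.6 and 35.2 CPM in EL4-like cells and 0.260, 0, 0.254 and 0.307 CPM in Jurkat-like cells (log2 fold change 8.48 ± 0.25 SE, edgeR adjusted p = 2.26e-07). The related inhibitory receptor BTLA was at 13.4, 12.9, 10.2 and 11.6 CPM in EL4-like cells and had 3 UMIs in Jurkat-like cells. CD44, the hyaluronan receptor of memory and effector cells, was at 40.5, 56.9, 36.6 and 55.9 against 0.371, 1.60, 0.525 and 1.84 CPM (log2 fold change 6.06 ± 0.29 SE, edgeR adjusted p = 1.15e-06). CD40LG, by which helper T cells activate B cells, had no UMI in EL4-like cells and 37.8, 10.4, 36.1 and 17.8 CPM in Jurkat-like cells (at least 1912-fold, edgeR adjusted p = 1.25e-05). CD52 depended on the preparation: 141, 39.4, 162 and 41.7 CPM in EL4-like cells against 42.6, 65.0, 46.0 and 63.9 CPM in Jurkat-like cells, higher in EL4 in replicates 1 and 3 and lower in replicates 2 and 4 (log2 fold change 0.63 ± 0.49 SE, edgeR adjusted p = 0.265). In TALL-104-like cells CD52 was at 2105 to 3586 CPM, and its Jurkat level was 1.24% to 3.09% of that. Of the 19 tested genes of the list, 8 were called at least 2-fold higher in EL4-like cells and 8 at least 2-fold lower (9 and 8 with TMM factors). The median log2 fold change of the list was 0.61 (1.04 with TMM factors), and the median changed sign with the preparation, being 1.04 in replicates 1 and 3 and -0.65 in replicates 2 and 4. In replicates 2 and 4 the median gene was CD52 itself, so the sign there is that of CD52.

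More homing receptors and integrins were lower than higher in EL4-like cells. CCR9, the chemokine receptor for gut and thymus, was among the higher ones, at 69.7, 158, 69.2 and 146 CPM in EL4-like cells against 0.0371, 0, 0.0906 and 0.307 CPM (log2 fold change 9.78 ± 0.26 SE, edgeR adjusted p = 2.20e-07). The integrin chains ITGA4 and ITGA5 were nearly absent from EL4-like cells: ITGA4 was at 0.352, 0.403, 0.910 and 0.498 against 189, 222, 250.2 and 278 CPM (log2 fold change -8.71 ± 0.25 SE, edgeR adjusted p = 2.20e-07), and ITGA5 had no UMI against 9.58, 17.6, 9.24 and 16.9 CPM (at least 525-fold). CCR8 had no UMI in EL4-like cells and 0.334 to 1.60 CPM in Jurkat-like cells. ITGAL, the alpha chain of LFA-1, was present in both (37.9, 46.2, 30.8 and 42.0 against 35.7, 108, 45.5 and 107 CPM, log2 fold change -0.75 ± 0.24 SE, edgeR adjusted p = 0.0217), and its call was lost with TMM factors. Of the 20 genes tested, 4 were called at least 2-fold higher in EL4-like cells and 11 at least 2-fold lower (5 and 11 with TMM factors). As a list they had a median log2 fold change of -1.85 (-1.44 with TMM factors).

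Cytokine receptors, JAK kinases and STAT factors went both ways. Of the 31 tested, 7 were called at least 2-fold higher in EL4-like cells and 10 at least 2-fold lower (10 and 8 with TMM factors). Over these genes the median log2 fold change was -0.43 (0.00 with TMM factors), near the -0.39 and 0.02 of all genes tested. Of all genes 18.7% were called at least 2-fold higher and 36.0% at least 2-fold lower. SOCS2, an inhibitor of cytokine receptors, was at 66.8, 68.0, 61.3 and 69.5 against 6.05, 6.42, 6.12 and 7.06 CPM (log2 fold change 3.37 ± 0.14 SE, edgeR adjusted p = 6.00e-07). CISH, of the same family, was at 0.101, 0.201, 0.0965 and 0.176 against 2.71, 2.41, 2.66 and 3.69 CPM (log2 fold change -4.48 ± 0.37 SE, edgeR adjusted p = 1.63e-05). STAT4 and IL10RA, the interleukin-12 transducer and the interleukin-10 receptor chain, had 3 and 1 UMIs in EL4-like cells and 2.66 to 5.84 and 0.520 to 4.81 CPM in Jurkat-like cells. In TALL-104-like cells, whose medium held interleukin-2, CISH, STAT4 and IL10RA were at 99.5 to 175, 60.3 to 159.9 and 96.7 to 167 CPM. Their Jurkat levels were 1.38% to 2.68%, 3.51% to 4.68% and 0.535% to 2.88% of these. In each library these shares were above that of CCL5, and the part of free RNA in them was not tested. JAK1 overlapped between the lines (89.9, 103, 85.4 and 108 against 47.1, 91.5, 53.7 and 89.4 CPM).

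More interferon-stimulated genes were lower than higher in EL4-like cells. ISG15, a ubiquitin-like modifier, was at 5.20, 3.96, 5.80 and 3.98 CPM in EL4-like cells and 269, 134, 226 and 149 CPM in Jurkat-like cells (log2 fold change -5.33 ± 0.16 SE, edgeR adjusted p = 2.26e-07). The antiviral genes OAS2 and IFITM1 were at 0 to 0.0879 and 0 to 0.205 CPM against 7.35 to 14.4 and 8.47 to 20.9 CPM. The Jurkat level of IFITM1 was 3.94% to 5.48% of that in TALL-104-like cells, and the part of free RNA in it was not tested. IFITM3 went the other way in 3′ v3 (36.9, 28.7, 41.4 and 32.2 against 0.446, 2.41, 2.08 and 0.921 CPM, log2 fold change 4.95 ± 0.39 SE, edgeR adjusted p = 1.27e-05). Of the 26 tested, 3 were called at least 2-fold higher in EL4-like cells and 15 at least 2-fold lower (4 and 13 with TMM factors). Together they had a median log2 fold change of -1.34 (-0.92 with TMM factors). IRF1, which drives antigen presentation genes, was at 7.82, 8.53, 7.86 and 8.61 against 113, 116, 122 and 109.7 CPM (log2 fold change -3.82 ± 0.13 SE, edgeR adjusted p = 3.22e-07). In the class I pathway, B2M, the light chain of the class I molecule, was at 1338, 1373, 1269 and 1183 against 1806, 1399.9, 1649.5 and 1332 CPM, a log2 fold change of -0.25 that turned to 0.16 with TMM factors, and of 15 genes tested, 1 was called at least 2-fold higher in EL4-like cells and 2 at least 2-fold lower (6 and 1 with TMM factors). Their median log2 fold change was -0.25 (0.16 with TMM factors). Its immunoproteasome subunits PSMB9 (log2 fold change 0.92 ± 0.13 SE, edgeR adjusted p = 3.78e-04) and PSMB10 (log2 fold change 1.64 ± 0.29 SE, edgeR adjusted p = 0.00110) were higher in EL4-like cells and the activator PSME1 lower (log2 fold change -1.02 ± 0.11 SE, edgeR adjusted p = 6.38e-05).

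Several small calcium-binding and actin-binding proteins were far lower in EL4-like cells. S100A10, the partner of annexin 2, was at 0.302, 0, 0.496 and 0.937 CPM in EL4-like cells and 106.3, 119, 95.8 and 114 CPM in Jurkat-like cells (log2 fold change -7.84 ± 0.44 SE, edgeR adjusted p = 2.55e-06). The actin-capping CAPG was at 1.41, 0.134, 1.78 and 0.791 against 240.4, 85.8, 219 and 92.1 CPM (log2 fold change -7.25 ± 0.28 SE, edgeR adjusted p = 5.22e-07). TMSB4X (thymosin beta 4), which sequesters actin monomers, was at 742, 187, 618 and 154 against 5219, 4728, 4285 and 4391 CPM (log2 fold change -3.77 ± 0.42 SE, edgeR adjusted p = 8.61e-05). These 3 genes were lower in every EL4 library than in any Jurkat library. COTL1, a further actin-binding protein, was at 8.49, 4.97, 6.30 and 4.04 against 350.3, 235, 342 and 201 CPM (log2 fold change -5.58 ± 0.14 SE, edgeR adjusted p = 1.82e-07). GMFG was at 19.3, 6.65, 18.5 and 7.09 against 442, 433, 416 and 379 CPM (log2 fold change -5.16 ± 0.32 SE, edgeR adjusted p = 4.02e-06). EL4-like cells of replicates 1 and 3 had several times the TMSB4X level of replicates 2 and 4, but all 4 stayed below Jurkat. ACTB itself was at 5087, 4003, 4406 and 3666 against 7060.3, 3016, 6746 and 2787 CPM, and its log2 fold change of -0.07 turned to 0.34 with TMM factors. The actin crosslinker FLNA was lower in EL4-like cells (27.8, 54.7, 25.5 and 47.4 against 115, 185, 99.7 and 183 CPM, log2 fold change -1.93 ± 0.12 SE, edgeR adjusted p = 3.40e-06) and the transgelin TAGLN2 higher (590.0, 374, 541 and 378 against 305, 224, 269.5 and 217 CPM, log2 fold change 0.88 ± 0.11 SE, edgeR adjusted p = 1.57e-04). Of the 30 actin genes tested, 2 were called at least 2-fold higher in EL4-like cells and 8 at least 2-fold lower (5 and 6 with TMM factors). The list had a median log2 fold change of -0.49 (-0.08 with TMM factors). Without the selection genes LGALS1 and S100A6, 18 S100, annexin and galectin genes were tested, of which 6 were called at least 2-fold higher in EL4-like cells and 6 at least 2-fold lower (7 and 6 with TMM factors). The median log2 fold change of these was -0.027 (0.38 with TMM factors).

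The 2-fold calls among cholesterol synthesis genes were all lower in EL4-like cells. FDFT1 (squalene synthase) was at 17.5, 12.8, 14.4 and 11.98 CPM in EL4-like cells and 413, 395, 374 and 354 CPM in Jurkat-like cells (log2 fold change -4.77 ± 0.14 SE, edgeR adjusted p = 2.20e-07). FDPS (farnesyl diphosphate synthase) was at 139.9, 62.9, 116 and 60.8 against 644, 600.1, 628 and 542 CPM (log2 fold change -2.76 ± 0.21 SE, edgeR adjusted p = 1.03e-05). ACAT2 (acetyl-CoA acetyltransferase), which feeds the pathway, was at 38.7, 25.7, 37.9 and 26.7 against 282, 194, 277 and 164 CPM (log2 fold change -2.82 ± 0.12 SE, edgeR adjusted p = 7.33e-07). All 3 were lower in every EL4 library. INSIG1, which holds the pathway's activator in check and is induced by it, was at 57.4, 52.0, 54.1 and 46.0 against 191, 408, 177 and 353 CPM (log2 fold change -2.33 ± 0.26 SE, edgeR adjusted p = 9.14e-05). Of the 23 genes tested, 0 were called at least 2-fold higher in EL4-like cells and 16 at least 2-fold lower (0 and 11 with TMM factors). As a list they had a median log2 fold change of -1.18 (-0.77 with TMM factors), and the 5′ kit gave 0 higher and 16 lower.

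The glycolysis and respiration lists had medians above that of all genes with both kits. In 5′ v1 more of their members were called 2-fold lower than higher, as over all genes. The summed level of the 19 paired glycolysis genes was lower in EL4-like cells of every library, at 9738, 6889, 9107 and 6758 CPM against 15268, 8917, 14586 and 8699 CPM in Jurkat-like cells. SLC2A3, the glucose transporter GLUT3, was at 250.4, 531, 189.5 and 490.4 CPM in EL4-like cells against 4.27, 17.6, 4.56 and 14.4 CPM (log2 fold change 5.36 ± 0.20 SE, edgeR adjusted p = 4.35e-07). LDHA, the muscle-type lactate dehydrogenase chain, was higher by under 2-fold (log2 fold change 0.58 ± 0.11 SE, edgeR adjusted p = 0.00208), but LDHB, the heart-type chain, was nearly absent from EL4-like cells, at 0.101, 0, 0.0414 and 0 CPM against 2149, 1101, 2148 and 1058 CPM (edgeR adjusted p = 1.49e-07). ALDOC was at 0.729, 0.739, 0.662 and 0.762 against 6.98, 54.6, 7.59 and 50.1 CPM, several times higher in Jurkat replicates 2 and 4 than in 1 and 3, and PFKM at 13.1, 15.5, 12.2 and 16.6 against 1.23, 0, 1.36 and 1.23 CPM (log2 fold change 3.45 ± 0.28 SE, edgeR adjusted p = 1.55e-05). Of the 19 tested glycolysis genes, 8 were called at least 2-fold higher in EL4-like cells and 4 at least 2-fold lower (10 and 3 with TMM factors). Over these genes the median log2 fold change was 0.71 (1.13 with TMM factors). Of the 72 nuclear genes of oxidative phosphorylation, 14 were called at least 2-fold higher in EL4-like cells and 4 at least 2-fold lower (30 and 1 with TMM factors). Together they had a median log2 fold change of 0.52 (0.93 with TMM factors). Examples are COX8A of complex IV (1411, 1319, 1689.8 and 1343 against 489, 474, 445 and 452 CPM, log2 fold change 1.63 ± 0.12 SE, edgeR adjusted p = 9.32e-06) and ATP5H of the ATP synthase (842, 523, 777 and 538 against 186, 109.9, 180.4 and 109 CPM, log2 fold change 2.21 ± 0.11 SE, edgeR adjusted p = 1.36e-06). The ATP synthase genes ATP5G1 (log2 fold change 1.87 ± 0.25 SE, edgeR adjusted p = 2.30e-04) and ATP5S (log2 fold change -2.43 ± 0.16 SE, edgeR adjusted p = 5.65e-06) went opposite ways, and the complex IV subunit COX4I1 was higher by under 2-fold (log2 fold change 0.86 ± 0.12 SE, edgeR adjusted p = 2.82e-04). With the 5′ kit the medians of the glycolysis and respiration lists were -0.01 and -0.01 beside -0.62 over the 10913 genes tested in 3′ v3. It called 3 glycolysis genes at least 2-fold higher and 5 lower, and 9 respiration genes higher and 13 lower, where 18.5% and 41.0% of the 11565 genes tested with that kit were so called. The mitochondrially encoded genes held 4.09% to 6.60% of paired UMIs in EL4-like cells and 4.69% to 8.33% in Jurkat-like cells, within the limit set by the rule, so their levels are not tested here. As a description, MT-ND3, MT-ND4 and MT-ND6, subunits of complex I, were at 470.1 to 1676, 2694 to 3267 and 43.2 to 78.3 CPM in EL4-like cells and 3723 to 5688, 5283 to 10112 and 645 to 1317 CPM in Jurkat-like cells.

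**Figure D3:**
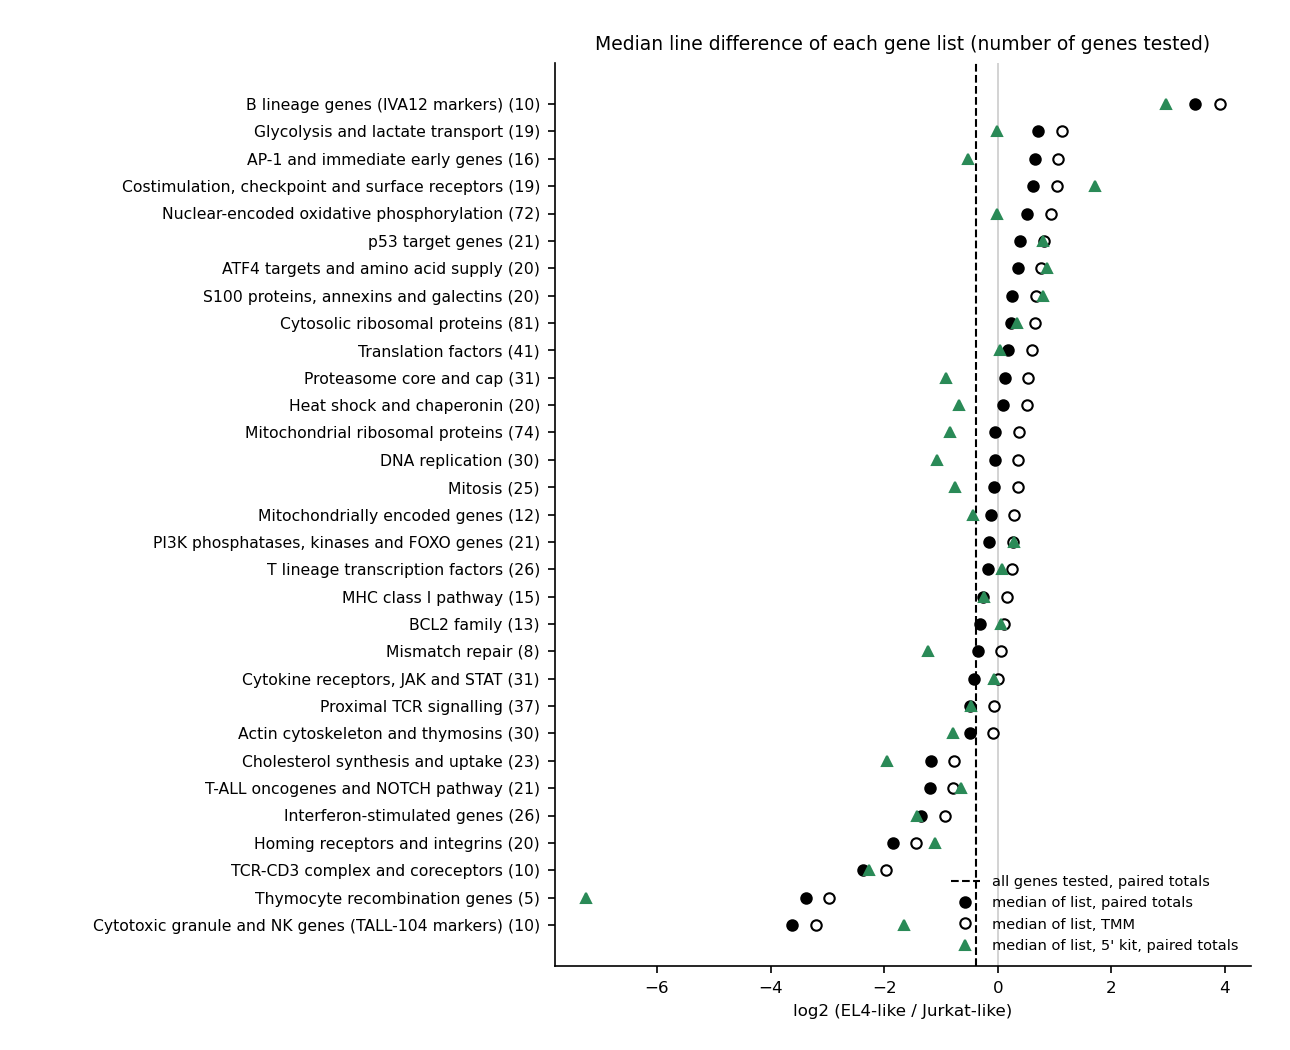
Median log2 ratio of EL4-like to Jurkat-like cells for each gene list, with the number of genes tested in brackets, for 3′ v3 with paired totals (filled circles) and TMM factors (open circles) and for 5′ v1 (triangles). The dashed line is the median of all genes tested, -0.39, and cytotoxic, recombination, receptor, homing, interferon and cholesterol genes lie to its left with both kits. The cytotoxic, S100 and p53 lists are drawn with their selection genes.

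Ribosomal protein genes took a larger share of EL4-like counts. Their share of paired UMIs was 30.99%, 29.0%, 33.5% and 29.5% in EL4-like cells of replicates 1 to 4 and 23.5%, 26.4%, 24.0% and 26.3% in Jurkat-like cells, a difference of 5.71 ± 3.30 percentage points (SD, n = 4). It was higher in EL4-like cells in 4 of 4 libraries (exact two-sided sign-flip permutation test, p = 0.13, the smallest that 4 libraries allow). The gap was wider in replicates 1 and 3, where Jurkat shares were lowest. The 50 highest genes of each line held 29.4% to 30.4% of paired UMIs in EL4-like cells and 24.0% to 29.0% in Jurkat-like cells, a difference of 3.07 ± 2.99 points in 4 of 4 libraries (exact sign-flip permutation p = 0.13). By gene, 13 were called at least 2-fold higher in EL4-like cells and 9 at least 2-fold lower (25 and 4 with TMM factors) of 81 ribosomal protein genes. Their median log2 fold change was 0.24 (0.65 with TMM factors).

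Some of the widest differences lay in gene pairs whose human member has a copy or an overlapping read-through feature in the annotation, so that the human counts of these genes are uncertain. The ribosomal protein genes RPL36A (2840.4, 2979, 3382 and 2866 CPM in EL4-like cells against 154, 222, 212 and 191 CPM in Jurkat-like cells) and RPS10 (5581, 4697, 5152 and 4432 against 320.1, 322, 485 and 274 CPM) have human read-through features, RPL36A-HNRNPH2 and RPS10-NUDT3, that span them, as have MRPS24 (272, 271, 268 and 307 against 6.02, 9.63, 42.8 and 9.21 CPM) and LUC7L2 (197, 299, 172 and 291 CPM in EL4-like cells, no UMI in Jurkat-like cells). Differences of the same direction were present between the other lines: RPS10 and MRPS24 were at 3979 ± 383 and 471 ± 5.10 CPM (mean ± SD, n = 4) in IVA12-like cells and at 536 ± 219 and 7.60 ± 10.2 CPM in TALL-104-like cells. EIF3C, a translation initiation subunit with a human copy EIF3CL, was at 305, 573, 351 and 586 against 7.17, 12.8, 9.78 and 14.1 CPM, and the elongation factor EEF1G at 1318, 1594, 1224 and 1580.2 against 0.891, 4.01, 5.27 and 4.91 CPM. RPS12 had a log2 fold change 0.70 ± 0.11 SE, edgeR adjusted p = 5.63e-04, and RPL39L, a testis-type paralog of RPL39, went the other way (1.53, 1.14, 2.84 and 6.74 against 197, 204, 185 and 181 CPM). Among 116 tested pairs with a human read-through feature, 48 (41.4%) were at least 2-fold higher in EL4-like cells and 30 (25.9%) at least 2-fold lower, with a median log2 fold change of 0.53, beside 18.7% and 36.0% of all genes. The part of counting in these differences was not tested.

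Replication, mitosis, proteasome, translation and mitochondrial ribosome lists had medians between -0.06 and 0.19 in 3′ v3, above the -0.39 of all genes. With the 5′ kit all of these lists but translation factors had medians below that of all genes. In 5′ v1 the medians were -1.07 for replication (1 called at least 2-fold higher and 16 lower), -0.76 for mitosis (1 and 9) and -0.91 for the proteasome (1 and 12). They were -0.84 for mitochondrial ribosomal proteins (3 and 31) and 0.04 for translation factors (5 and 6), beside -0.62 over the 10913 genes tested in 3′ v3. Of all genes tested with the 5′ kit 18.5% were called at least 2-fold higher and 41.0% lower. The shares called lower in mitosis, the proteasome and the mitochondrial ribosome are near that 41.0%. With TMM factors the 5′ median was -0.53 for replication and -0.22 for mitosis. It was -0.37 for the proteasome and -0.30 for the mitochondrial ribosome, beside -0.08 for all genes. Between the preparations of 3′ v3 the proteasome median went from -0.18 in replicates 1 and 3 to 0.45 in the other two libraries. The mitochondrial ribosome median went from -0.41 to 0.31 and that of chaperones from -0.32 to 0.75. In DNA replication, 4 were called at least 2-fold higher in EL4-like cells and 4 at least 2-fold lower (8 and 2 with TMM factors) of 30. The list had a median log2 fold change of -0.05 (0.36 with TMM factors). TYMS (thymidylate synthase) was lower in EL4-like cells (122, 96.1, 110.2 and 100.2 against 1030.1, 710.0, 1013 and 684 CPM, log2 fold change -2.99 ± 0.13 SE, edgeR adjusted p = 7.17e-07) and the helicase subunit MCM2 (log2 fold change 1.46 ± 0.14 SE, edgeR adjusted p = 3.27e-05) and DNA ligase LIG1 (log2 fold change 1.51 ± 0.14 SE, edgeR adjusted p = 3.21e-05) higher, while POLD2 was lower (log2 fold change -1.47 ± 0.18 SE, edgeR adjusted p = 1.60e-04). In mitosis, 1 was called at least 2-fold higher in EL4-like cells and 3 at least 2-fold lower (4 and 1 with TMM factors) of 25. The median log2 fold change of the list was -0.06 (0.35 with TMM factors). CENPA, the centromeric histone, was higher (log2 fold change 1.35 ± 0.11 SE, edgeR adjusted p = 1.48e-05) and CENPF was lower (log2 fold change -1.64 ± 0.17 SE, edgeR adjusted p = 6.26e-05). In the proteasome, 2 were called at least 2-fold higher in EL4-like cells and 0 at least 2-fold lower (7 and 0 with TMM factors) of 31. As a list they had a median log2 fold change of 0.13 (0.54 with TMM factors). PSMA6 was among the higher ones (364, 212, 330.5 and 226 against 44.8, 51.3, 77.9 and 53.1 CPM). Among translation factors, 6 were called at least 2-fold higher in EL4-like cells and 1 at least 2-fold lower (11 and 0 with TMM factors) of 41. Over these genes the median log2 fold change was 0.19 (0.60 with TMM factors). Among mitochondrial ribosomal proteins, 9 were called at least 2-fold higher in EL4-like cells and 10 at least 2-fold lower (17 and 3 with TMM factors) of 74. Together they had a median log2 fold change of -0.04 (0.37 with TMM factors). MRPL38 was higher (log2 fold change 4.84 ± 0.20 SE, edgeR adjusted p = 6.47e-07) and MRPL47 lower (log2 fold change -3.37 ± 0.31 SE, edgeR adjusted p = 3.08e-05).

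Several stress genes differed between the preparations in Jurkat-like cells. HSP90AA1, the inducible HSP90, was at 1654, 1789.6, 1404 and 1814 CPM in EL4-like cells but at 3468, 913, 3191 and 934 CPM in Jurkat-like cells, above EL4 in replicates 1 and 3 and below it in replicates 2 and 4, and its log2 fold change of -0.09 turned to 0.32 with TMM factors. The constitutive HSP90AB1 had a log2 fold change 1.71 ± 0.25 SE, edgeR adjusted p = 4.39e-04. HSPA8, the constitutive HSP70, was at 2447, 1883, 2423 and 1997 against 1595, 421, 1572 and 451 CPM (log2 fold change 1.38 ± 0.31 SE, edgeR adjusted p = 0.00394). ASNS, the ATF4-induced asparagine synthetase, was at 597, 447, 558 and 469 CPM in EL4-like cells and at 8.73, 68.2, 9.08 and 62.0 CPM in Jurkat-like cells, several times as high in replicates 2 and 4 as in 1 and 3. Its split followed the preparations. SLC7A11, the cystine importer of the same pathway, was at 71.4, 105, 64.5 and 95.8 against 2.75, 20.9, 2.72 and 25.2 CPM with the same split, and VLDLR had no UMI in EL4-like cells against 4.90, 25.7, 4.47 and 28.3 CPM. In these replicates 2 and 4 the mitochondrial limit had removed about as many Jurkat candidates as it kept and UMIs per cell were lower. Their part in these values was not tested. ATF4 itself had a log2 fold change -0.80 ± 0.18 SE, edgeR adjusted p = 0.00406, and its target NUPR1, a stress-induced chromatin protein, was at 2.75 to 4.69 CPM in EL4-like cells and 0 to 0.0543 CPM in Jurkat-like cells. Among ATF4 genes, 6 were called at least 2-fold higher in EL4-like cells and 4 at least 2-fold lower (8 and 1 with TMM factors) of 20. Their median log2 fold change was 0.35 (0.77 with TMM factors). HSPB1, a small heat shock protein, differed between the lines in every library (0.101, 0, 0.0689 and 0.0293 against 208, 168, 206 and 168 CPM, log2 fold change -11.55 ± 0.27 SE, edgeR adjusted p = 1.49e-07), and HSPA1B had no UMI in EL4-like cells against 8.91 to 21.9 CPM. Of 20 chaperone genes tested, 3 were called at least 2-fold higher in EL4-like cells and 3 at least 2-fold lower (5 and 2 with TMM factors). The list had a median log2 fold change of 0.10 (0.51 with TMM factors).

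EGR1 and NR4A1, immediate early genes that are known to rise soon after stimulation, also differed between the preparations in EL4-like cells. The whole list summed to 610.1, 692, 602 and 649 CPM in EL4-like cells. EGR1 was at 11.4, 92.9, 7.84 and 87.7 CPM in EL4-like cells and 3.86, 8.82, 3.21 and 8.29 CPM in Jurkat-like cells (log2 fold change 2.20 ± 0.37 SE, edgeR adjusted p = 9.31e-04), but with the 5′ kit its log2 fold change was -4.55. NR4A1, a reporter of receptor signalling, was at 8.52, 46.7, 7.71 and 31.02 against 2.15, 4.81, 2.12 and 9.52 CPM (log2 fold change 2.04 ± 0.23 SE, edgeR adjusted p = 8.32e-05). In EL4-like cells both were several times higher in replicates 2 and 4 than in replicates 1 and 3. ATF3 had 2 UMIs in EL4-like cells and 5.57 to 16.6 CPM in Jurkat-like cells, and DUSP6, a phosphatase of ERK, was higher in EL4-like cells (log2 fold change 2.60 ± 0.23 SE, edgeR adjusted p = 2.27e-05). Of the 16 genes tested, 6 were called at least 2-fold higher in EL4-like cells and 3 at least 2-fold lower (9 and 2 with TMM factors). The median log2 fold change of the list was 0.65 (1.06 with TMM factors).

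Genes of the cytotoxic and B cell lists, the markers of TALL-104 and IVA12, were also compared. Of the 10 tested B cell genes, 6 were called at least 2-fold higher in EL4-like cells and 3 at least 2-fold lower (7 and 3 with TMM factors). As a list they had a median log2 fold change of 3.48 (3.91 with TMM factors). CD79B and MS4A1, which are among the higher ones, are also among the 4 genes that set the marker share given above. They lie within that share by construction, so it is no test of them. Neither these calls nor the median is read as B cell gene expression in EL4. CD22 and PAX5, of the same list, were higher in EL4-like than in IVA12-like cells of every library, with the levels given above for the markers. Without the selection genes NKG7 and CST7, 8 cytotoxic genes were tested, of which 2 were called at least 2-fold higher in EL4-like cells and 5 at least 2-fold lower (2 and 5 with TMM factors). Over these genes the median log2 fold change was -3.63 (-3.20 with TMM factors). Jurkat-like cells had 54.5, 62.6, 47.9 and 47.0 CPM of CD79A, a chain of the B cell receptor, against 0.126, 0.403, 0.234 and 0.293 CPM in EL4-like cells (log2 fold change -7.72 ± 0.25 SE, edgeR adjusted p = 2.90e-07), and 11.8, 6.42, 11.1 and 9.83 CPM of the B cell kinase BLK, of which EL4-like cells had 1 UMI. Both were also read in TALL-104-like cells, CD79A at 41.2, 14.9, 34.1 and 24.4 CPM and BLK at 17.7, 11.2, 20.9 and 28.9 CPM. The B cell surface gene MS4A1 (CD20) and the factor PAX5 were at 1.68 to 3.27 and 0.377 to 1.54 CPM in EL4-like cells and had 3 and 0 UMIs in Jurkat-like cells. In CPM over all mouse genes, MS4A1 was at 1.57 to 3.04 in EL4-like cells and 160 to 183 in the IVA12-like cells of the same libraries, and PAX5 at 0.352 to 1.45 and 0.278 to 0.560. CTSW, a protease of cytotoxic cells, was at 23.9 to 51.4 CPM over all human genes in Jurkat-like cells and 319 to 478 in TALL-104-like cells. The granzyme GZMK was at 1.78 to 5.22 CPM over paired genes in Jurkat-like cells and had 3 UMIs in EL4-like cells. It stood at 0.442% to 1.54% of the TALL-104 level. The part of free RNA in these values was not tested.

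The most extreme genes, chosen as the 10 highest and 10 lowest with at least 50 CPM in every library of the higher line, were all at or near 0 in the other line. In EL4-like cells these were UCHL1, a deubiquitinase of neurons and many tumours (255, 181, 226 and 172 CPM), LUC7L2 and MTAP, the Wnt inhibitor WIF1 (153, 117, 148 and 105.6 CPM), the fatty acid dehydrogenase ACADL (120.3, 76.0, 132 and 81.1 CPM), the lectin receptor CLEC4D (101, 66.1, 99.3 and 65.4 CPM), the G protein regulator RGS13 (83.1, 52.4, 94.5 and 51.6 CPM), the apolipoprotein APOD (78.4, 79.0, 71.7 and 78.8 CPM), the channel TRPM1 (74.7, 94.7, 69.5 and 80.6 CPM) and MARC2 (66.7, 63.0, 64.9 and 61.7 CPM). All 10 had no UMI in Jurkat-like cells, which puts the differences at 1863-fold or more for MARC2 and at 6286-fold or more for UCHL1. Those of Jurkat-like cells were SH2D1A, LDHB, the eye-field factor SIX6 (170.1, 97.9, 168 and 107 CPM), the neutrophil protease CTSG (166, 158, 164 and 129 CPM), the keratin KRT10 (169.7, 114, 146 and 113 CPM), the chondroitin sulfotransferase CHST11 (96.4, 143, 96.2 and 167 CPM), the receptor kinase ADRBK2 (91.9, 259, 102 and 271 CPM), ANKRD36 (53.2, 233, 61.3 and 278 CPM), the linker histone H1FX (375, 513, 282 and 471 CPM) and the growth factor binder IGFBP2 (276, 397, 259 and 395 CPM). EL4-like cells had 0 or 1 UMI of each except LDHB. In all, 188 (9.20%) of the genes called 2-fold higher in EL4-like cells had no UMI in Jurkat-like cells, and 168 (89.4%) of these had none in TALL-104-like cells either. Of the genes called 2-fold lower, 407 (10.4%) had no UMI in EL4-like cells, and 282 (69.3%) of these had none in IVA12-like cells. The sums over paired genes were 268884 to 1437622 UMIs in TALL-104-like and 4064311 to 33394438 UMIs in IVA12-like cells. A gene is therefore more easily without a UMI in TALL-104-like cells, and the 89.4% and 69.3% cannot be compared.

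The same lines were then compared with the 5′ v1 kit, which counts the other end of the transcript in 2 libraries outside the rule. It had 1255 and 666 EL4-like and 1325 and 601 Jurkat-like cells by the same rule. Of 11565 genes tested, 8930 (77.2%) differed, 2140 (18.5%) at least 2-fold higher and 4738 (41.0%) at least 2-fold lower in EL4-like cells. The calls were 33.3% higher and 66.7% lower with paired totals and 47.6% and 52.4% with TMM factors, at medians of -0.66 and -0.12. Of the 5968 genes called at 2-fold in 3′ v3, 5717 (95.8%) had the same direction in 5′ v1, 4928 (82.6%) were also called at 2-fold there and 47 (0.788%) were called 2-fold the other way. Over 10913 genes the log2 fold changes of the kits correlated with Pearson's r of 0.94 and Spearman's rho of 0.88, a description over genes. In the 3′ v2 library read here, with 446 EL4-like and 280 Jurkat-like cells and no replicate, r was 0.90 over 7433 genes with at least 10 UMIs in both lines.

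The libraries of the 2 kits disagreed for a minority of genes by more than their spread. The kits were run on different libraries and the test takes no account of cell mixture, so kit and preparation cannot be told apart in it. Within 3′ v3 alone, 2185 of 10302 genes had line differences at least 2-fold apart between preparations. Dependence on the kit means below a difference between these libraries. The line difference depended on the kit in 3184 genes (27.5%) by edgeR's interaction test, a count that fell to 828 without 5′ v1 replicate 1 and to 662 without replicate 2. KLF2 was at 12.6 and 10.8 CPM in EL4-like cells and 9.79 and 7.76 CPM in Jurkat-like cells of 5′ v1, a log2 fold change of 0.42 against -4.59 in 3′ v3 (edgeR adjusted p of the difference = 2.99e-05). EGR1 turned from 2.20 to -4.55 (edgeR adjusted p of the difference = 4.00e-04), with 0.452 and 0.782 CPM in EL4-like cells and 13.3 and 14.4 CPM in Jurkat-like cells of 5′ v1. ACTB was at 696 and 572 against 7258 and 5540.4 CPM there, a log2 fold change of -3.33. Among the genes with the largest dependence, TIMM23, a mitochondrial import channel with a human copy TIMM23B, was at 297 and 314 CPM in EL4-like cells and 8.85 and 9.92 CPM in Jurkat-like cells of 5′ v1 but at 3.47 to 11.5 and 30.1 to 61.7 CPM in 3′ v3. BOP1, a ribosome assembly factor, was lower in EL4-like cells with the 5′ kit (17.6 and 14.1 against 107 and 83.6 CPM) and higher with the 3′ kit (58.1 to 82.7 against 0.371 to 1.54 CPM). RAB4B also changed direction, from -4.05 to 2.82. It has the human read-through features MIA-RAB4B and RAB4B-EGLN2, whose part in this was not tested. TMEM238, CYTIP, SCO2, TMEM141 and ATP6V0E2 had log2 fold changes of 1.57, 7.32, -0.89, -8.18 and -9.50 in 3′ v3. In 5′ v1 replicates 1 and 2 their levels were 103 and 105, 68.0 and 63.1, 0.417 and 0.241, 0 and 0, and 0 and 0 CPM in EL4-like cells and 0.206 and 0.0902, 0 and 0, 55.3 and 58.4, 88.8 and 99.4, and 126 and 149.8 CPM in Jurkat-like cells. In these 5 genes 1 line had no UMI or under 1 CPM in 5′ v1, so that the size of the difference there is not measured, and the same holds for CTSG and BOLA2. In 3′ v3 the log2 fold change of SCO2 was -1.52 in replicates 1 and 3 but 0.0070 in replicates 2 and 4. TAL1, SATB1 and NOTCH1 kept their direction. The number of list members whose line difference depended on the kit was 23 of 30 in DNA replication, 22 of 31 in the proteasome, 1 of 10 in the receptor list and 2 of 21 in the leukaemia list, beside the 27.5% of all genes.

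**Figure D4:**
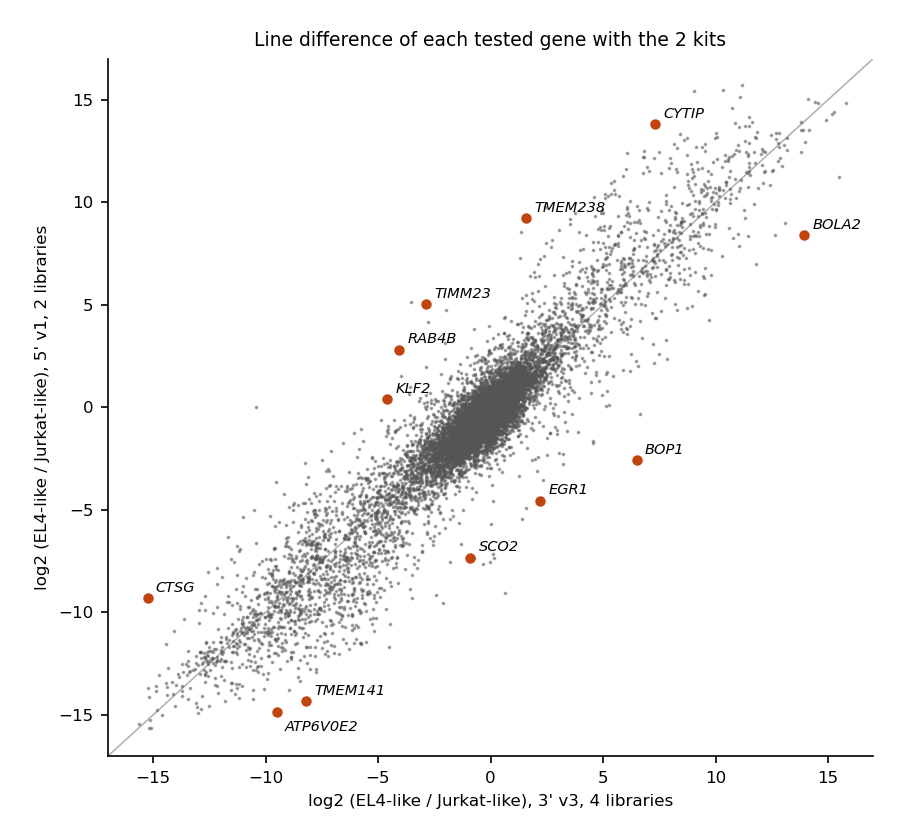
Log2 ratio of EL4-like to Jurkat-like cells in 3′ v3 (4 libraries, horizontal) against 5′ v1 (2 libraries, vertical) for each gene tested, with the line of equal values. Most genes follow the line (r = 0.94), while the labelled genes, among them KLF2 and BOP1, lie off it. Genes with no UMI in a line have fitted values that are no measure of size.

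The other mouse and human lines of the same libraries gave a second mouse-to-human difference for each gene. IVA12-like (1860) and TALL-104-like (1493) cells were compared in the same way, as 1 fit over all 4 lines. The mouse-to-human difference was unlike in the 2 pairs in 6449 of 11030 genes (58.5%). UMIs of the other species made up 2.27% to 14.7% of the TALL-104-like totals, and these cells had medians of 1999 to 2763 UMIs, so their values are less precise. The ribosomal protein and respiration lists had medians of the same sign in both pairs, as had the receptor, homing and cholesterol lists. For ribosomal proteins they were 0.24 between EL4 and Jurkat and 0.43 between IVA12 and TALL-104, with 35 of 81 genes unlike by test. For oxidative phosphorylation they were 0.52 and 0.79, with 45 of 72 genes unlike, beside the 58.5% of all genes. In the T cell lists the values were further apart: for the receptor list the medians over the 9 genes in both fits were -2.0 and -7.34, with 7 of the 9 unlike, and for homing genes -1.80 and -3.50. For cholesterol genes the medians were -1.18 and -0.23, with 14 of 23 genes unlike by test, a share near the 58.5% of all genes. For mitosis genes they were -0.06 and 3.74, with 25 of 25 unlike. The pairs share libraries but no cells, and with TMM factors the median difference between the pairs over all genes moved from -0.41 to -0.18.

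Among single genes, the T cell factor MAF (2.01 ± 0.172 and 0.640 ± 0.484 CPM), the receptor CXCR6, the Fc receptor chain FCER1G (69.4 ± 38.1 and 0.751 ± 0.631 CPM) and the adaptor STAP1 (54.4 ± 2.78 and 0.228 ± 0.386 CPM) were higher in EL4-like than Jurkat-like cells and lower in IVA12-like than TALL-104-like cells. CXCR6, a chemokine receptor of effector T cells, was at 13.6 ± 2.89 and 0.258 ± 0.269 CPM (mean ± SD, n = 4) in EL4-like cells and Jurkat-like cells and at 0.155 ± 0.190 and 197 ± 18.6 CPM in the IVA12-like and the TALL-104-like cells (difference of the log2 ratios 15.39 ± 0.49 SE, edgeR adjusted p = 2.21e-14). TCF4, a factor of B cells and plasmacytoid cells, was at 4.05 ± 2.20 and 8.48 ± 2.27 CPM against 285 ± 105.6 CPM in IVA12-like cells and no UMI in TALL-104-like cells. Its EL4 level was 0.606% to 2.34% of the IVA12 level, within the marker share, and the part of free RNA in it was not tested. DENND5B, EEF1A2 and SLC25A21 were at 242 ± 103, 59.1 ± 5.95 and 82.04 ± 6.51 CPM in IVA12-like cells and had no UMI in TALL-104-like cells, beside 8.07 ± 3.68, 1.78 ± 1.09 and 1.46 ± 0.881 CPM in EL4-like cells. Their EL4 levels were 0.767% to 5.73% of those in IVA12-like cells. NDST3, a heparan sulfate enzyme, was at 57.5 to 67.4 CPM in Jurkat-like cells and 0 to 0.0586 CPM in EL4-like cells, with at most 1.38 CPM in the other two lines. TAL1 was at most 0.0299 CPM in IVA12-like cells and at most 3.48 CPM in TALL-104-like cells, and SATB1 was at 6.17 ± 1.24 and 114 ± 62.9 CPM.

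**Figure D5:**
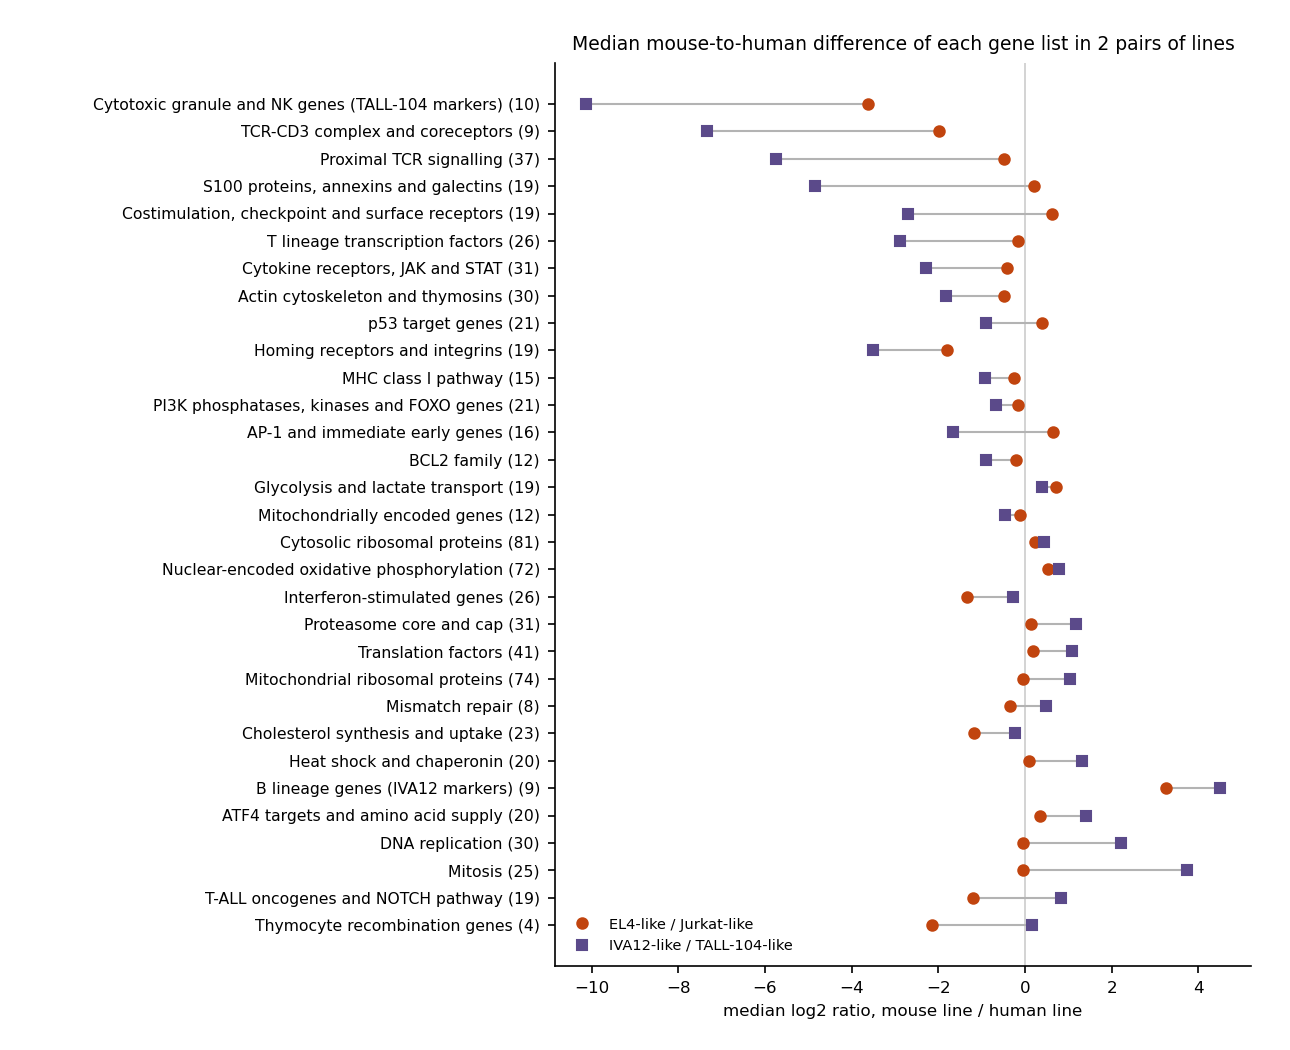
Median log2 ratio of the mouse line to the human line for each gene list in EL4-like over Jurkat-like cells (orange circles) and IVA12-like over TALL-104-like cells (purple squares), with the number of genes in both fits in brackets. The cytotoxic, receptor, signalling and S100 lists lie far apart with the IVA12 to TALL-104 ratio lower, the mitosis, recombination and replication lists with it higher, and ribosomal, glycolysis and respiration lists are close together. The cytotoxic and S100 lists include selection genes.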

How the data were processed

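The data are single-cell RNA libraries of a mixture of 4 lymphocyte lines, made with droplet kits that count the 3′ end (v2 and v3) or the 5′ end (v1). The authors subsampled reads to a common depth per cell with seqtk, aligned them with Cell Ranger 3.0.2 to a combined hg19 and mm10 reference (version 1.2.0), and deposited raw UMI counts per gene and barcode without normalization. The library totals in the files are 38116299 to 251164949 UMIs in 3′ v3. PCR duplicates are collapsed by the UMIs, so intervals and floors cover counting error only.

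The members and gene lists were chosen with earlier results of these data known. Barcodes with at least 500 UMIs were read, and cells selected by the rule given above. The limit of 80% for 1 species removed droplets with a large share of both species, but one that also holds a cell of few UMIs of the other species can remain, and no caller was run for doublets within a species. Replicates were numbered in accession order. Of the 3′ v2 kit, 1 replicate was used. Counts were summed per line and library over paired genes, giving 1246548 to 72548706 UMIs per sum, and tested with edgeR 4.0.16 (R 4.3.3; filterByExpr, quasi-likelihood test, 3 residual degrees of freedom), adjusted by the Benjamini-Hochberg method. Both lines come from each library, so the library was the block that pairs them. Kits were compared by an interaction term over 12 sums and the line pairs by a contrast over 16. Levels of named genes were also set against the other line of the same species in the same library, a step added after seeing the data. Alternatives were TMM factors, totals without ribosomal and mitochondrial genes, DESeq2 1.42.0, no filter, no replicate block, other mitochondrial and UMI limits, each replicate or preparation left out, a test against a 2-fold difference and, added after seeing the data, removal of barcodes of 150000 UMIs or more. The tests were tried on simulated data with known changes.

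Genes were named by a rule: the 10 highest and 10 lowest fold changes with at least 50 CPM in the higher line, up to 4 called and 2 other members of each of 31 lists, the members of 5 lists in full, the 10 selection genes and the 5 largest interactions in each direction. Members of these that are not named are covered by the counts of their lists, and a few items are not reported here. Figures were drawn with matplotlib 3.10.9. No sequence is printed.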

Additional observations from a re-analysis of the deposited data

Results flagged for a closer look

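Single libraries stood apart from the other 3 of their line in 8 of 305 groups examined (2.62%), by a gap too wide for Dixon's criterion at 4 samples. Chance exceeds it in about 1 of 20 groups, so this count is below what chance gives, and the 8 are listed as values only. In EL4-like cells these were APOD at 71.7 CPM in replicate 3 and MRPS24 at 307 CPM in replicate 4. In Jurkat-like cells they were EOMES at 9.52, PTCRA at 11.1 and CDKN1A at 2.76 CPM in replicate 4, SLC25A21 at 2.41 CPM and PFKM at 0 in replicate 2, and MRPS24 at 42.8 CPM in replicate 3. Replicate 2 had the fewest Jurkat-like UMIs, and a level of 2.41 CPM there stands for 3 UMIs.

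The line difference depended on the kit in 3184 genes and on the line pair in 6449 genes by edgeR's test of the difference itself. For the kit (5′ v1 minus 3′ v3, log2) the values of the named genes were 7.90 for TIMM23, 7.66 for TMEM238, 6.85 for RAB4B, 6.48 for CYTIP, 5.76 for CTSG, -5.36 for ATP6V0E2, -5.50 for BOLA2, -6.13 for TMEM141, -6.41 for SCO2 and -9.08 for BOP1. For the line pair (EL4 over Jurkat minus IVA12 over TALL-104, log2) they were 15.97 for FCER1G, 15.72 for MAF, 15.39 for CXCR6, 15.02 for STAP1, -12.94 for EEF1A2, -13.00 for SLC25A21, -14.01 for DENND5B, -16.43 for TCF4 and -17.25 for NDST3. Where a line had no UMI, such a fitted value depends on the prior count and is no measure of size.

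For 3 named genes both libraries of one preparation were higher in EL4-like cells and both of the other lower, a difference that was not tested. The log2 fold change was 1.77 in replicates 1 and 3 and -0.65 in replicates 2 and 4 for CD52, -0.54 and 0.40 for ACTB, and -1.13 and 0.96 for HSP90AA1.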

How the results depend on the processing

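The count of 8492 genes lay between 5932 (mitochondrial limit of 5%, 8740 genes tested) and 9724 (replicates 1 and 3 alone) in all alternatives but the test against a 2-fold difference, which called 5002 genes, 1658 higher and 3344 lower. Without the replicate block, that is with unpaired libraries, 7339 genes were called. Cells of 10000 to 20000 UMIs in both lines gave 6272 of 8840 genes, DESeq2 gave 8612, and leaving out each replicate gave 7747 to 8374 (2859 to 3022 higher, 4834 to 5414 lower). The split was 49.0% higher and 51.0% lower by DESeq2. The counts that depend on the kit ranged from 662 to 3275 without 1 replicate (252 to 1242 higher, 410 to 2033 lower), the low end being without 5′ v1 replicate 2 (662) or 1 (828). The counts for the line pairs ranged from 5257 to 6216 without 1 replicate, the share of ribosomal proteins from 4.46 to 6.73 points and that of the 50 highest genes from 2.04 to 3.93 points.

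Of 191 named genes, 150 had the same direction and the same side of the threshold under every alternative. Of 2983 values, 80 were no longer past the threshold, 18 newly past it and 26 reversed, in 9 genes. With TMM factors DNTT turned to 0.16, MSH6 to 0.023, B2M to 0.16, ACTB to 0.34 and HSP90AA1 to 0.32. By DESeq2 DNTT turned to 0.12, B2M to 0.11, ACTB to 0.30 and HSP90AA1 to 0.29. With totals that leave out ribosomal and mitochondrial genes, ACTB turned to 0.026 and HSP90AA1 to 0.012. In cells of 10000 to 20000 UMIs DNTT turned to 0.20 and ACTB to 0.0705. At a mitochondrial limit of 5% PTCRA turned to 0.024, and at 10000 UMIs or more EEF1A2 turned to -0.0094. Replicates 1 and 3 alone gave 0.0037 for DNTT, and replicates 2 and 4 alone gave -0.65 for CD52, 0.40 for ACTB, 0.96 for HSP90AA1 and 0.0070 for SCO2. Without 1 replicate ACTB ranged from -0.23 to 0.11, HSP90AA1 from -0.46 to 0.31 and EEF1A2 from -0.49 to 0.43. The cause was not tested in any of these. Calls were lost without 1 replicate for FOXO3, ITGAL (without 2 or 4), MSH6 (without 1, 2 or 3), JAK1 and SCO2 (without 1 or 3) and DENND5B (without 3). For FOXO3 these were replicates 2 and 4.

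Precision is limited by the Jurkat-like cells of replicates 2 and 4 (118 and 319 cells) and, for the line pairs, by TALL-104-like sums of 268884 to 1437622 UMIs. In 3′ v3 with paired totals and all 4 libraries, list medians were the same to 2 decimals when genes with no UMI in a line were set at their bound.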
